A study of Ganoderma lucidum with 6 samples.

Results

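The genes described here encode enzymes that make amino acids in Ganoderma lucidum, a wood-decaying basidiomycete. They are the rows of the deposited table whose KEGG entry (a database of metabolic maps) includes the map Biosynthesis of amino acids, together with 5 genes taken in by name. Rows that also lie on the maps of glycolysis, the citrate cycle or the pentose phosphate route were left out, as were glutamine synthetase, glutamate synthase and arginase. This gave 28 genes of 16113 in the table. Of the 46 rows on the map, 24 were kept and 22 were left out. The genes taken in by name were 3-isopropylmalate dehydrogenase GL31360-G, 3-isopropylmalate dehydratase GL26795-G, the aconitase/homoaconitase GL29907-G, argininosuccinate lyase GL24849-G and tryptophan synthase GL24792-G. Of these, 4 carry no KEGG entry, and GL24849-G would have been kept by its map as well.

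RNA sequencing compared wild-type mycelia on day 3 with ammonium sulfate, (NH4)2SO4, in 3 libraries and with sodium nitrate, NaNO3, in the other 3. The series asks what sets ammonium-fed and nitrate-fed mycelia apart. Because sulfate and sodium come with the nitrogen source, their part and that of the nitrogen form cannot be told apart, and the labels give no salt concentration and do not say whether replicates were separate cultures. The spread behind each p-value is that between these samples, and it may be technical. Totals ran from 19979528 to 27604895 counts per library, and all 28 genes passed the filter for testing, with at least 47 counts in every library. The 26 genes with the GO identifier for structural constituents of the cell wall, which hydrophobins of fungal hyphae carry, summed to 6165 to 9867 FPKM per library. The 6 chitin synthase genes summed to 607 to 1299 FPKM. These sums describe the libraries and cannot test the label, since there were no libraries of another growth form to compare. In bulk RNA, fewer cells with a transcript and less of it per cell cannot be told apart.

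Fungi make all protein amino acids from a few carbon skeletons of central metabolism, to which aminotransferases add nitrogen from glutamate. Leucine, isoleucine and valine share their last aminotransferase, and fungi make lysine by way of aminoadipate, a route that plants and most bacteria do not use. In yeast many genes of these routes are under general amino acid control by the kinase Gcn2 and the factor Gcn4, and leucine genes also under the factor Leu3.

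On nitrate, 8 of the 28 genes were lower than on ammonium and 1 was higher, taking 0.05 as the limit for edgeR's quasi-likelihood p after Benjamini-Hochberg adjustment over all genes tested. Those that fell were both isopropylmalate enzymes of leucine synthesis, the aconitase/homoaconitase GL29907-G and the aminotransferase GL25884-G, both with annotations of lysine synthesis among others, argininosuccinate lyase, tryptophan synthase, serine hydroxymethyltransferase and alanine aminotransferase. The threonine dehydratase GL17594-G, of the isoleucine branch, was the gene that rose. Over all 11993 genes tested, 15.6% were called, 8.13% lower and 7.5% higher, and 3828 had an unadjusted edgeR p under 0.05. The lower calls made 28.6% of the 28 genes, but all 5 genes taken in by name are among them, and those were chosen with earlier results of these data known. Among the 24 genes with a KEGG entry, 4 were lower (16.7%) and 1 was higher (4.17%). The median log2 fold change of nitrate over ammonium was -0.52 over the 28 genes and -0.33 over the 24, against 0.01 over all genes tested. Values were below 0 in 23 of the 28. The sign of the change held in 26 of the 28 genes in all 6 fits with 1 library left out.

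These counts changed when single libraries were left out. Of the 28 genes, 5 were called lower without ammonium replicate 1, 3 without ammonium replicate 2, 4 without ammonium replicate 3 and 3 without nitrate replicate 3. Without nitrate replicate 1 there were 6 and without nitrate replicate 2 there were 7. No gene was called higher in any of these 6 fits. The lower calls over the whole table moved as well, from 975 to 466 when ammonium library 2 was dropped and 382 when ammonium library 3 was. Dropping nitrate library 2 left 622 and dropping nitrate library 3 left 386. With ammonium library 1 dropped they numbered 1036, and with nitrate library 1 dropped 874, while those among the 28 genes were fewer than with all libraries. Among the 24 genes with a KEGG entry, 1 was called lower without ammonium replicate 1, ammonium replicate 3 or nitrate replicate 3, 2 without ammonium replicate 2 or nitrate replicate 1, and 4 without nitrate replicate 2. Nitrate replicate 1 was the lowest nitrate library in 17 of the 28 genes (60.7%), and in 44.0% of all genes tested, on the scale of normalised counts. Without it, the median over the 28 genes was -0.38.

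**Figure D1:**
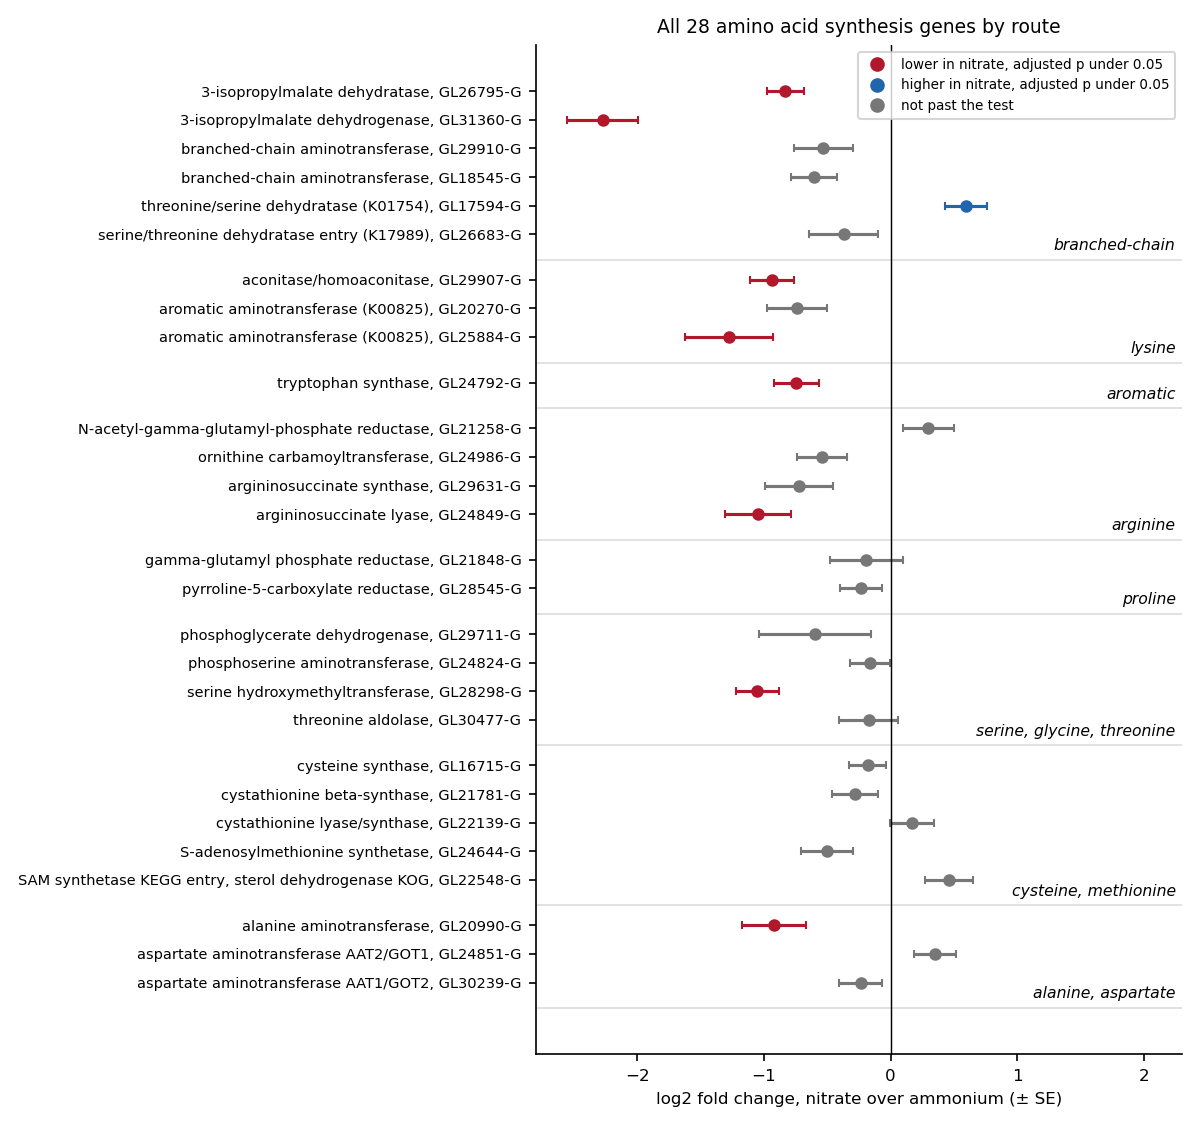
Log2 fold change of nitrate over ammonium for each of the 28 genes (x axis, points; bars are the standard error), grouped by route on the y axis. Red points are the 8 genes lower in nitrate past the test, the blue point is the 1 gene that was higher, and grey points did not pass. Most points lie left of 0.

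Leucine is made from ketoisovalerate in 4 steps, by isopropylmalate synthase, isopropylmalate dehydratase, isopropylmalate dehydrogenase and a branched-chain aminotransferase. The largest change among the 28 genes was at the dehydrogenase, GL31360-G, which was taken in by name with earlier results of these data known. It lies on the minus strand of scaffold 6 at 988817 to 990426. Its level was 36.6, 23.4 and 41.6 FPKM in ammonium replicates 1 to 3 and 4.60, 8.73 and 7.89 FPKM in nitrate replicates 1 to 3. The highest nitrate library was well below the lowest ammonium library. The mean went from 33.9 ± 9.42 to 7.07 ± 2.18 FPKM (SD, n = 3 and 3), a log2 fold change of -2.27 ± 0.28 (SE, adjusted p = 0.00262, edgeR). The call held without any single library (adjusted p = 0.00267 to 0.0149, edgeR).

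The dehydratase GL26795-G, which isomerises isopropylmalate one step earlier, lies on the plus strand of scaffold 9 at 887849 to 890683. It stood at 62.4, 62.1 and 55.5 FPKM in the ammonium libraries and at 31.2, 34.9 and 35.8 FPKM in the nitrate libraries. The groups were narrow and far apart, in a gene also taken in by name with earlier results of these data known. The fall was smaller than that of the dehydrogenase, with means of 60.0 ± 3.89 and 34.0 ± 2.43 FPKM (log2 fold change -0.83 ± 0.15, adjusted p = 0.0099, edgeR). It was just short of the threshold without ammonium replicate 2 (adjusted p = 0.0517, edgeR). The ratio of dehydrogenase to dehydratase FPKM within a library was 0.587, 0.377 and 0.75 on ammonium and 0.147, 0.251 and 0.22 on nitrate. Every nitrate ratio was below every ammonium ratio. Both genes were taken in with those earlier results known, so the ratio is given without a test.

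Branched-chain aminotransferase moves the amino group onto the last intermediate, and the table holds 2 genes described as such. GL29910-G was at 52.3, 39.4 and 35.0 FPKM on ammonium and 19.6, 34.5 and 34.7 FPKM on nitrate. These groups almost touch, at 35.0 and 34.7 FPKM (log2 fold change -0.53 ± 0.23, adjusted p = 0.157, edgeR). GL18545-G was at 27.2, 21.1 and 26.5 FPKM and at 12.6, 17.9 and 19.1 FPKM, again without overlap (-0.61 ± 0.18, adjusted p = 0.0571, edgeR, and 0.0214 by DESeq2). The ratio of the aminotransferases to each other was 1.32 to 1.92 on ammonium and 1.56 to 1.92 on nitrate, so those ranges overlapped.

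Genes outside the 28 that carry GO identifiers of leucine synthesis fill the remaining steps, a list drawn up after the annotation was seen. Of 5 such genes tested, 1 was higher and 4 did not pass, where 7.5% of all genes tested were higher. The 4 that did not pass all carry the identifier of isopropylmalate synthase, which opens the route. The most abundant of them, GL30076-G, stood at 131 ± 24.6 FPKM on ammonium and 168 ± 28.4 FPKM on nitrate (adjusted p = 0.256, edgeR). It also carries the identifier of homocitrate synthase, the opening step of lysine synthesis. The gene that rose was GL30065-G, which has no description but the identifier of branched-chain transaminase, from 20.6 ± 5.89 to 44.7 ± 11.4 FPKM (1.10 ± 0.24 as log2 fold change, adjusted p = 0.0209, edgeR). It also has identifiers of folate metabolism, and its call was lost on dropping ammonium library 2 or 3 or nitrate library 2 or 3 (highest adjusted p = 0.0827).

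Threonine dehydratase removes the amino group of threonine and so opens the isoleucine branch. GL17594-G, with that KEGG entry, lies on the minus strand of scaffold 5 at 303183 to 305229. It was at 60.2, 58.2 and 47.3 FPKM on ammonium and 83.7, 77.8 and 89.7 FPKM on nitrate. All nitrate libraries were higher than all ammonium libraries. The means were 55.2 ± 6.94 and 83.7 ± 5.96 FPKM (log2 fold change 0.59 ± 0.17, adjusted p = 0.0472, edgeR). The call was close to the threshold, and it was lost whichever library was dropped (adjusted p = 0.0702 to 0.174, edgeR) and with no filter on low counts (0.0534). The second dehydratase, GL26683-G, without a KOG description and with a KEGG entry of the serine and threonine dehydratases, was at 6.83 to 9.71 FPKM on ammonium and 3.83 to 8.17 FPKM on nitrate. Its groups overlapped (adjusted p = 0.392, edgeR).

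**Figure D2:**
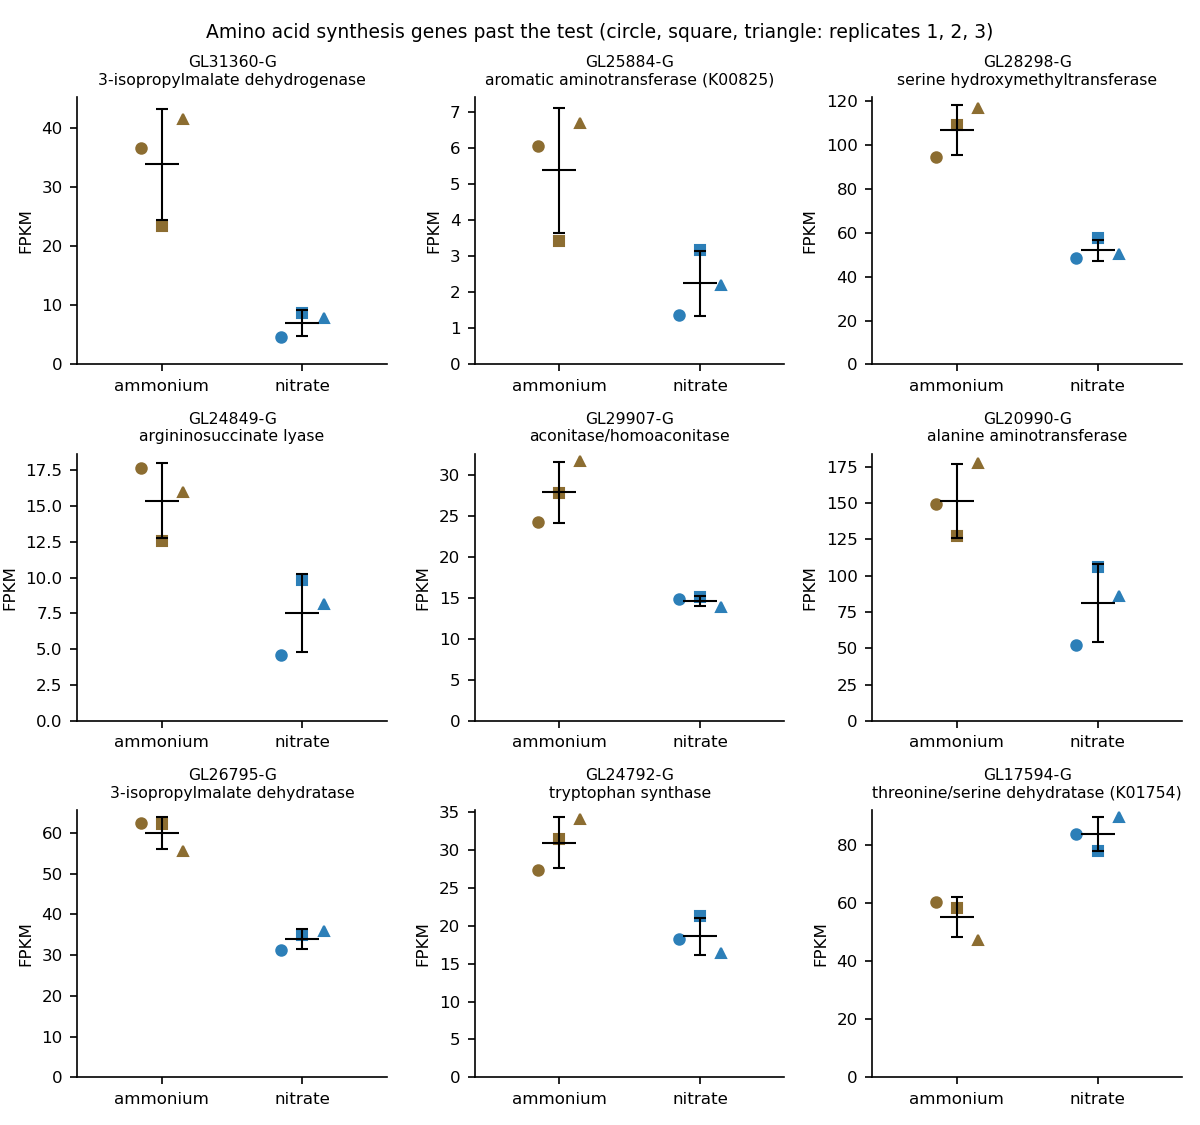
FPKM in each library (y axis, from 0) for the 9 genes past the test, with ammonium on the left and nitrate on the right of each panel. Symbols mark replicates 1 to 3, and black bars are the mean and SD of 3 libraries. The groups do not overlap in any panel, and threonine dehydratase GL17594-G is the panel that is higher on nitrate.

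In the lysine route, homocitrate is isomerised by homoaconitase, oxidised to ketoadipate, given an amino group and reduced. The aconitase/homoaconitase GL29907-G, on the plus strand of scaffold 1 at 1736762 to 1739899, stood at 24.2, 27.8 and 31.7 FPKM on ammonium and 14.9, 15.1 and 14.0 FPKM on nitrate. The nitrate libraries lay within about 1 FPKM of each other and below all ammonium libraries. This gene, too, was taken in by name with earlier results of these data known. It fell from 27.9 ± 3.75 to 14.7 ± 0.625 FPKM (-0.94 ± 0.17 as log2 fold change, adjusted p = 0.0114, edgeR). Dropping ammonium library 2 or nitrate library 3 left it short of the threshold (adjusted p = 0.0519 and 0.0566). Its GO identifiers name aconitase of the citrate cycle and mitochondrial translation beside lysine synthesis by way of aminoadipate, so the description does not settle which reaction it serves. The GO identifier of homoaconitase itself is on GL18527-G, outside the 28 genes, at 25.7 ± 1.05 and 18.6 ± 4.63 FPKM (adjusted p = 0.113, edgeR).

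A pair of genes has the KEGG entry of aminoadipate aminotransferase, which is also that of kynurenine aminotransferase, and a description as aromatic aminotransferases. GL25884-G, on scaffold 8 at 365254 to 367259, was at 6.04, 3.42 and 6.68 FPKM on ammonium and 1.36, 3.17 and 2.20 FPKM on nitrate. Ammonium replicate 2 lay just above nitrate replicate 2, and the groups did not overlap. It fell by 1.28 ± 0.34 on the log2 scale (adjusted p = 0.0425, edgeR), and did not pass by limma on log2(FPKM + 1) (adjusted p = 0.0653). The call was lost on dropping ammonium library 1 or 3 or nitrate library 1 or 3 (adjusted p = 0.062 to 0.15). GL20270-G, the least abundant of the 28 genes, lies 38.1 kb away on the same strand with 13 gene models between. It stood at 2.98, 2.81 and 3.38 FPKM and at 1.35, 1.93 and 2.27 FPKM, without overlap and short of the threshold (adjusted p = 0.0723, edgeR, and 0.0453 by DESeq2).

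Of 9 genes outside the 28 with the GO identifier for lysine synthesis by way of aminoadipate, 2 were lower and 7 did not pass. Of all genes tested, 8.13% were lower and 7.5% higher. The 9 include the aconitase/homoaconitase GL18572-G, left out of the 28 by its KEGG maps, so the list is not confined to the lysine route. GL26488-G, which has the identifier of homoisocitrate dehydrogenase but the KOG description of an isocitrate dehydrogenase subunit of the citrate cycle, fell from 28.6 ± 4.49 to 14.2 ± 0.404 FPKM (adjusted p = 0.00731, edgeR, and under the threshold without any single library). Aminoadipate reductase, GL24047-G, which makes the semialdehyde, fell from 9.17 ± 2.47 to 4.11 ± 0.727 FPKM (adjusted p = 0.0148, edgeR, and 0.0648 without nitrate replicate 3). The saccharopine dehydrogenases at the end of the route, GL30911-G and GL22111-G, did not pass (adjusted p = 0.546 and 0.309, edgeR). The phosphopantetheinyl transferase GL26698-G, whose description names it as the enzyme that activates aminoadipate reductase, had the opposite sign, at 8.89, 4.21 and 4.64 FPKM on ammonium and 8.33, 13.5 and 18.0 FPKM on nitrate. Its groups overlapped at ammonium replicate 1 and nitrate replicate 1 (log2 fold change 1.15 ± 0.34, adjusted p = 0.0555, edgeR, and 0.00983 by DESeq2), and it was called higher when either of these was left out.

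**Figure D3:**
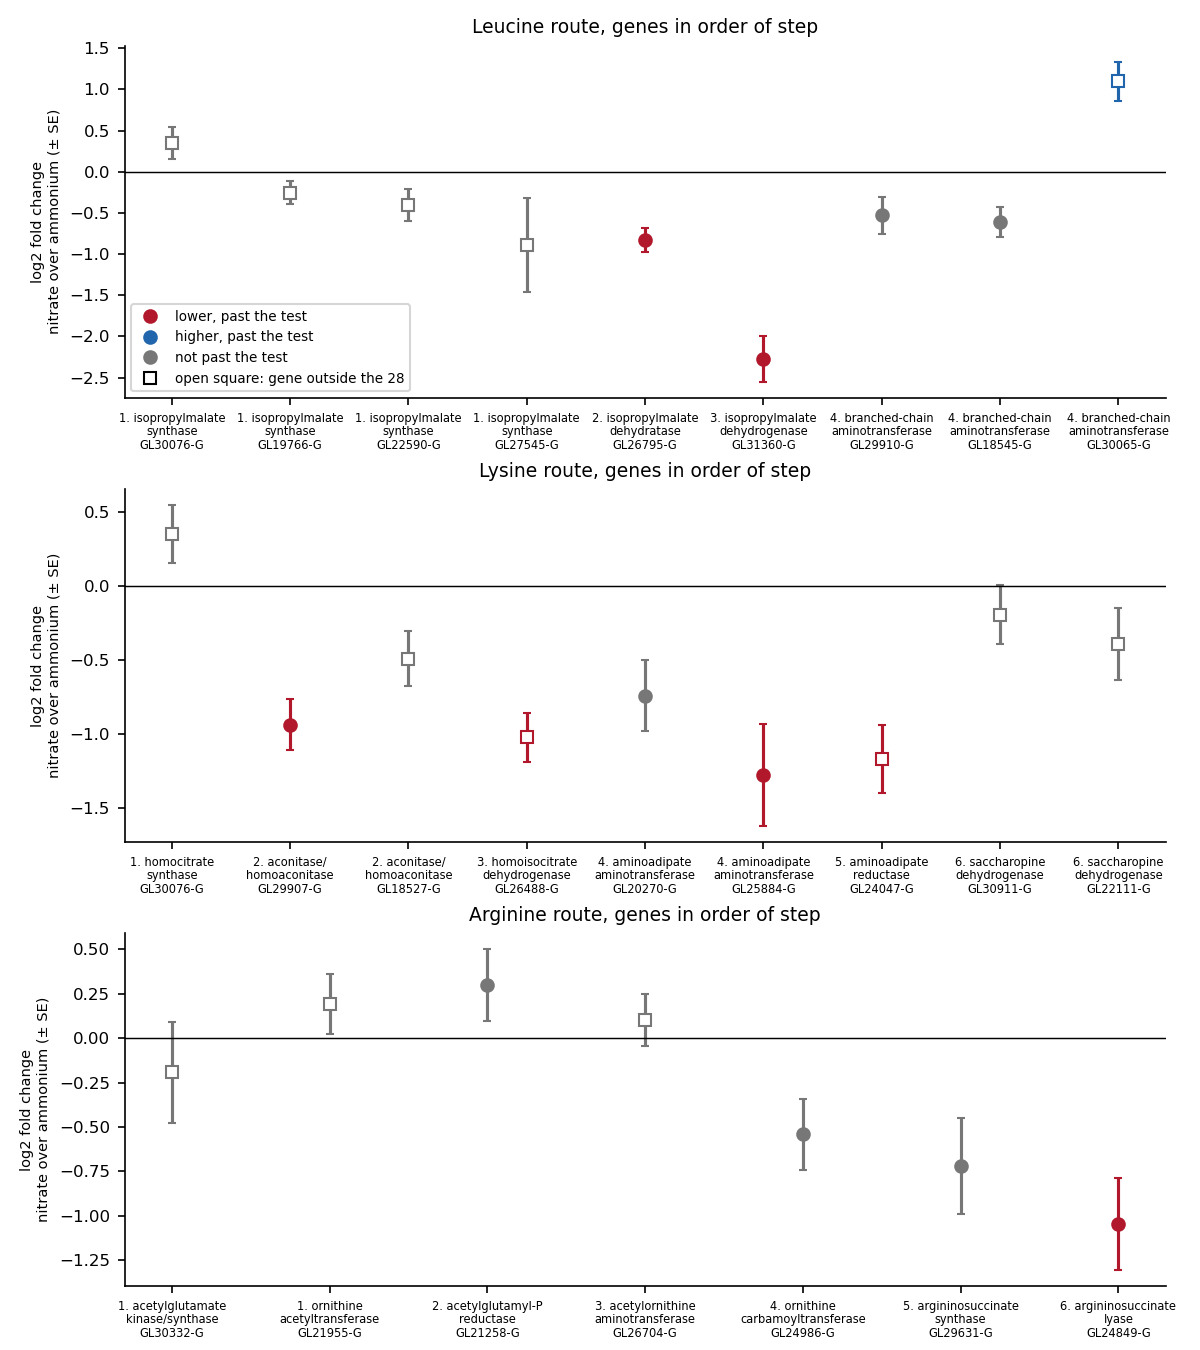
Log2 fold change of nitrate over ammonium (y axis, bars are the standard error) for genes annotated to the leucine, lysine and arginine routes, in the order of their steps along the x axis. Filled circles belong to the 28 genes and open squares do not. Red and blue mark genes past the test, and the lowest point is isopropylmalate dehydrogenase GL31360-G at -2.27.

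Arginine is made from glutamate through acetylated intermediates to ornithine, which then takes up carbamoyl phosphate and aspartate. The 4 genes of the route among the 28 differed in sign along it. N-acetyl-gamma-glutamyl-phosphate reductase, GL21258-G, of the acetylated part, was at 57.1, 64.5 and 59.5 FPKM on ammonium and 87.3, 71.1 and 64.7 FPKM on nitrate. It was higher in each nitrate library, by a narrow margin, and did not pass (log2 fold change 0.30 ± 0.20, adjusted p = 0.354, edgeR).

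The genes that follow ornithine had values below 0. Ornithine carbamoyltransferase, GL24986-G, which makes citrulline, was at 54.3, 37.0 and 37.1 FPKM and at 22.4, 31.8 and 34.7 FPKM (-0.54 ± 0.20, adjusted p = 0.108, edgeR). Argininosuccinate synthase, GL29631-G, which adds aspartate, was at 57.4, 34.9 and 49.1 FPKM and at 17.4, 32.9 and 36.6 FPKM, with overlap between ammonium replicate 2 and nitrate replicate 3 (-0.72 ± 0.27, adjusted p = 0.11, edgeR). In both, nitrate replicate 1 was the lowest library.

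Argininosuccinate lyase, GL24849-G, which releases arginine and fumarate, lies on the plus strand of scaffold 4 at 612570 to 614556. It was at 17.6, 12.5 and 15.9 FPKM on ammonium and 4.57, 9.86 and 8.17 FPKM on nitrate, without overlap. The mean fell from 15.4 ± 2.60 to 7.53 ± 2.70 FPKM (-1.05 ± 0.26 as log2 fold change, adjusted p = 0.0335, edgeR). That call was lost on dropping ammonium library 1, 2 or 3 or nitrate library 3 (adjusted p = 0.0547 to 0.113, edgeR) and by limma on log2(FPKM + 1) (0.0538). Of 8 tested genes outside the 28 with the GO identifier for arginine synthesis, 0 were called by edgeR, and 2 had an unadjusted p under 0.05. The share called over all genes tested was 15.6%. The 2 with an unadjusted p under 0.05 were GL21535-G and GL19179-G, with log2 fold changes of 0.48 and -0.72. The others of the 8 include acetylglutamate kinase/synthase GL30332-G and acetylornithine aminotransferase GL26704-G, with log2 fold changes of -0.19 and 0.10.

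Tryptophan synthase joins indole to serine in the last step of tryptophan synthesis. GL24792-G, on the minus strand of scaffold 4 at 1522089 to 1524649, stood at 27.4, 31.4 and 34.1 FPKM on ammonium and 18.2, 21.2 and 16.4 FPKM on nitrate. The groups were separated by about 6 FPKM, in a gene taken in by name with earlier results of these data known. It fell from 30.9 ± 3.35 to 18.6 ± 2.43 FPKM (-0.75 ± 0.18 as log2 fold change, adjusted p = 0.0288, edgeR). Dropping ammonium library 2 or 3, or nitrate library 2 or 3, removed the call (adjusted p = 0.0521 to 0.11). Of 4 other genes with the GO identifier for tryptophan synthesis, 0 were called by edgeR and 1 had an unadjusted p under 0.05. Of 6 with that for chorismate, the precursor of all aromatic amino acids, 0 were called and 0 had an unadjusted p under 0.05. The share called over all genes tested was 15.6%.

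The route from phosphoglycerate to serine includes a dehydrogenase and an aminotransferase. Serine hydroxymethyltransferase converts serine to glycine while charging folate with a one-carbon unit. The hydroxymethyltransferase GL28298-G, on the minus strand of scaffold 31 at 367488 to 369335, was at 94.4, 109 and 117 FPKM on ammonium and 48.4, 57.4 and 50.3 FPKM on nitrate. Each nitrate library was far below each ammonium library. It fell from 107 ± 11.4 to 52.0 ± 4.77 FPKM (-1.05 ± 0.17 as log2 fold change, adjusted p = 0.00705, edgeR), and the call held without any single library (adjusted p = 0.00626 to 0.0414, edgeR). Among the 24 genes with a KEGG entry it was the only gene whose call held in all 6 of these fits.

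The serine genes before it among the 28 did not pass. Phosphoserine aminotransferase, GL24824-G, was at 57.6 to 72.3 FPKM on ammonium and 49.9 to 64.3 FPKM on nitrate, with overlap (adjusted p = 0.514, edgeR). Phosphoglycerate dehydrogenase, GL29711-G, was at 6.82, 15.7 and 18.0 FPKM and at 12.9, 8.17 and 5.60 FPKM, the widest spread within groups among the 28 genes by its standard error. Of its model, 1394 bases overlap GL30575-G, a meiotic recombination gene on the other strand, at 8.89 to 29.3 FPKM. Whether counting used strand is not stated, so the reads of these genes could not be told apart. Threonine aldolase, GL30477-G, which splits threonine to glycine, was at 17.1 to 24.6 FPKM and 12.3 to 23.3 FPKM (adjusted p = 0.648, edgeR).

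Proline synthesis was represented by gamma-glutamyl phosphate reductase GL21848-G and pyrroline-5-carboxylate reductase GL28545-G, which carry out the reductions of the route. Of these 2 genes, 0 were called by edgeR or DESeq2, and 0 had an unadjusted p under 0.05. GL21848-G was at 4.25 to 7.87 FPKM on ammonium and 3.57 to 6.30 FPKM on nitrate, and GL28545-G was at 14.9 to 17.5 and 12.6 to 15.1 FPKM. Both pairs of ranges overlapped. Outside the 28, 1 of 2 genes with the GO identifier for proline synthesis was lower, where 8.13% of all genes tested were lower. This was GL31395-G, described as pyrroline-5-carboxylate dehydrogenase, an enzyme of proline breakdown, which went from 47.1 ± 6.32 to 23.9 ± 4.40 FPKM (adjusted p = 0.0122, edgeR). Its call was lost on dropping ammonium library 3 or nitrate library 3.

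None of the 5 genes of cysteine and methionine metabolism passed the edgeR or the DESeq2 test, and 2 had an unadjusted p under 0.05. Their median log2 fold change was -0.18. Cystathionine lyase/synthase GL22139-G, with the KEGG entry of cystathionine gamma-lyase, which releases cysteine, was the most abundant of them at 190 to 223 FPKM on ammonium and 217 to 264 FPKM on nitrate. Cysteine synthase GL16715-G, which joins sulfide to an activated serine, was at 38.7 to 48.6 and 34.4 to 40.5 FPKM. Cystathionine beta-synthase GL21781-G, the step before the lyase, was at 24.1 to 31.7 and 17.3 to 26.7 FPKM. In all of these the groups overlapped.

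S-adenosylmethionine synthetase makes the methyl donor of the cell from methionine. GL24644-G, described as such, was at 133, 163 and 157 FPKM on ammonium and 117, 116 and 88.1 FPKM on nitrate, without overlap (log2 fold change -0.50 ± 0.21, adjusted p = 0.138, edgeR). GL22548-G shares its KEGG entry but has the KOG description of a sterol dehydrogenase, so its annotations conflict. It was at 63.1, 51.5 and 53.7 FPKM and at 59.6, 75.4 and 99.9 FPKM (0.46 ± 0.19, adjusted p = 0.134, edgeR). The levels of these genes differed in opposite directions, neither past the test.

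Alanine and aspartate aminotransferases exchange the amino group of glutamate for that of alanine and aspartate, and work in both directions. Alanine aminotransferase, GL20990-G, on the plus strand of scaffold 12 at 285469 to 287229, was at 149, 127 and 177 FPKM on ammonium and 52.0, 106 and 85.8 FPKM on nitrate. The groups did not overlap, and nitrate replicate 1 was the lowest library. It fell from 151 ± 25.2 to 81.1 ± 27.1 FPKM (-0.92 ± 0.25 as log2 fold change, adjusted p = 0.0454, edgeR). By limma on log2(FPKM + 1) it did not pass (adjusted p = 0.0641). Dropping nitrate library 2 left the call in place (adjusted p = 0.043, edgeR). With each of the other 5 dropped it was lost, as the adjusted p ran from 0.0547 to 0.157.

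The aspartate aminotransferases were the most abundant of the 28 genes. The AAT1/GOT2 gene GL30239-G, named after the mitochondrial form of other organisms, was at 391, 386 and 396 FPKM on ammonium and 305, 374 and 325 FPKM on nitrate. The AAT2/GOT1 gene GL24851-G, named after the cytosolic form, was at 258, 247 and 292 FPKM and at 326, 341 and 358 FPKM. The groups of neither gene overlapped, in opposite directions, and neither passed the test (log2 fold changes -0.24 ± 0.17 and 0.35 ± 0.17, adjusted p = 0.373 and 0.194, edgeR). Within a library, the ratio of AAT2/GOT1 to AAT1/GOT2 was 0.66, 0.638 and 0.739 on ammonium and 1.07, 0.912 and 1.10 on nitrate. This pair was singled out after its values were seen, so the ratio is given without a test.

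Across the 28 genes, levels spanned 2.45 to 363 FPKM as the mean of 6 libraries, with a median of 36.1 FPKM against 12.6 FPKM over all genes tested. The FPKM of the groups did not overlap in 17 of the 28 genes, 14 lower and 3 higher in nitrate, where 17.9% and 19.1% of all genes tested did so. Among the 24 with a KEGG entry there were 10 lower and 3 higher. The summed FPKM of the 28 genes was 2009, 1905 and 2031 on ammonium and 1608, 1875 and 1778 on nitrate. Most of that sum lay in the alanine and aspartate aminotransferases and the cysteine and methionine genes, and of those 8 genes 1 was called.

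Pairs of the 28 genes within 50 kb of each other on a scaffold did not share a direction in every case. Argininosuccinate lyase GL24849-G and the AAT2/GOT1 gene GL24851-G lie 4.2 kb apart on scaffold 4, with 2 gene models between, at log2 fold changes of -1.05 and 0.35. The aconitase/homoaconitase GL29907-G and the aminotransferase GL29910-G lie 25.7 kb apart on scaffold 1, at -0.94 and -0.53. Phosphoserine aminotransferase GL24824-G and pyrroline-5-carboxylate reductase GL28545-G lie 21.9 kb apart on scaffold 4, at -0.16 and -0.23.

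**Figure D4:**
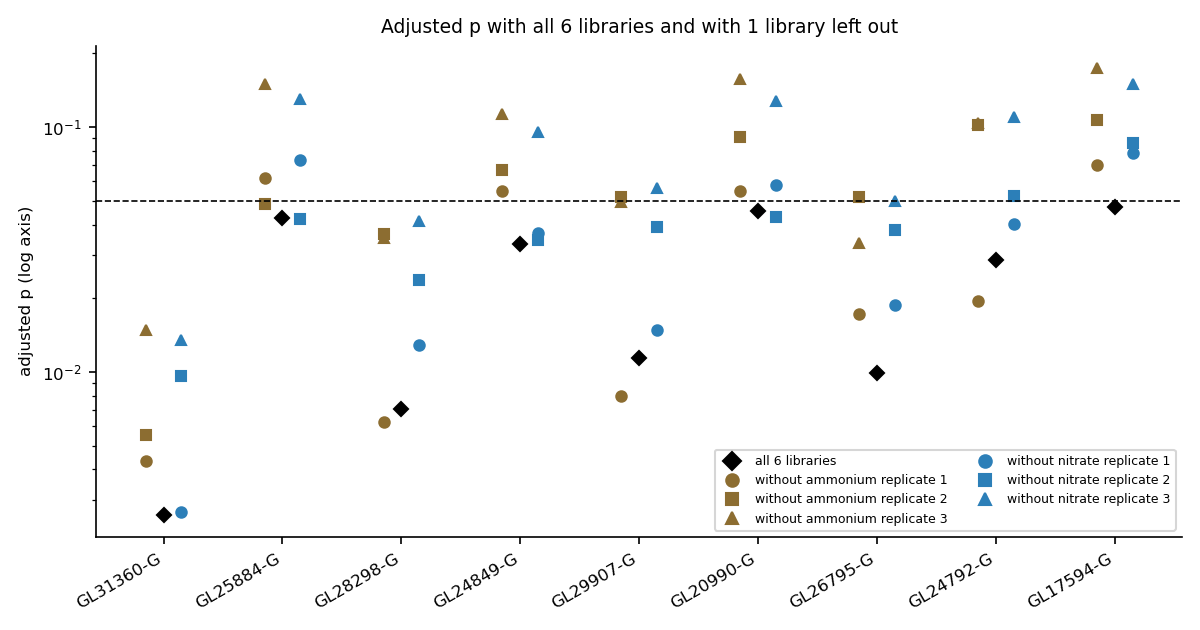
Adjusted p (y axis, log scale) of the 9 called genes with all 6 libraries (black diamonds) and with each library left out in turn (coloured symbols). The dashed line is 0.05. Isopropylmalate dehydrogenase GL31360-G and serine hydroxymethyltransferase GL28298-G lie below it in every fit, and threonine dehydratase GL17594-G lies above it in every fit with a library left out.

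Beyond the 28 genes and the 22 left out of the map, 73 tested genes carry a GO identifier for the synthesis of an amino acid, a list drawn up after the annotation was seen. Of these, 10 were lower (13.7%), 2 were higher (2.74%) and 61 did not pass, with a median log2 fold change of -0.32. Over all genes tested, 8.13% were lower and 7.5% higher, with a median of 0.01. Without 1 library, 5 to 10 were called lower and 0 to 4 higher, with the lowest count of lower calls, 5, without ammonium replicate 3 or nitrate replicate 3. Among 8 tested genes of cysteine synthesis on that list, 4 were lower, of which 3 belong to sulfate assimilation. Other genes of sulfate assimilation among the 8 did not pass. Sulfite reductase GL18754-G and phosphoadenosine phosphosulfate reductase GL31190-G had log2 fold changes of -0.045 and -0.32 (adjusted p = 0.911 and 0.352, edgeR). GL20411-G, taken here as the sulfite reductase flavoprotein, has the KOG description of an NADP/FAD dependent oxidoreductase. It fell by 1.97 on the log2 scale (adjusted p = 0.000553, edgeR) and held in every fit with a library left out. The call of GL25317-G was lost on dropping ammonium library 3 or nitrate library 2, and that of GL25330-G on dropping ammonium library 3 or nitrate library 3. The ammonium salt was the sulfate, so these cannot be told apart from a response to sulfate. The fourth, GL23034-G, with the identifier of the enzyme that joins sulfide to acetylhomoserine, fell from 19.6 ± 6.79 to 5.21 ± 2.03 FPKM (adjusted p = 0.0099, edgeR). Histidine synthesis, which has no gene among the 28, had 2 lower of 8: the amidotransferase/cyclase GL30576-G, whose call was lost whichever library was dropped (adjusted p = 0.0517 to 0.154, edgeR), and the folate enzyme GL24693-G, lost on dropping library 2 or 3 of either group.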

How the data were processed

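The authors deposited 1 table with raw read counts, TPM and FPKM per gene and library, per the file headers. Aligner, counting tool, build, annotation version and strand setting: not given in the sources used here. Tests used the counts, and levels are FPKM as deposited (values summed to 746632 to 843850 per library). TPM was not used further. Libraries were grouped by their titles. Counts were tested with edgeR 4.0.16 in R 4.3.3 (TMM, filterByExpr, quasi-likelihood test, robust, no block) over 11993 genes. The fit had 4 residual degrees of freedom and a common biological coefficient of variation of 0.248. The standard error was derived from the F statistic. Alternatives were RLE factors, other count filters, DESeq2 1.42.0, limma-trend (limma 3.58.1) on log2(FPKM + 1) and log2(FPKM + 0.1), the replicate number as a block, and each library left out. Steps were tested on simulated data. Same-numbered libraries did not deviate together (correlations of deviations -0.66, -0.35 and -0.46). Libraries of unlike number ran from -0.43 (ammonium 2 with nitrate 3) to 0.64 (ammonium 1 with nitrate 3). These values cannot show how the cultures were run, and the main fit used no pairing. Replicates of a group differed by far more than counting noise (chi-square per degree of freedom at least 35.1). A count of 3, the limit that a count of 0 allows, is 0.109 to 0.15 CPM, counting error only.

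The genes and lists were chosen with earlier results of these data known. Genes named are those called, those taken in by name, the most abundant of each route and those sharing a called gene's description. Other genes were named after their values were seen. No sequence is shown, since no reference was used here.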

Additional observations from a re-analysis of the deposited data

How the results depend on the processing

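Under RLE factors, a minimum of 50 counts in each of 3 libraries and DESeq2, the counts of the 28 genes called stayed within 1.5 times those reported. With no filter on low counts, 0 were called higher. With limma on log2(FPKM + 1) and log2(FPKM + 0.1), 5 were called lower under each, without GL25884-G, GL24849-G and GL20990-G, and 1 of the 24 with a KEGG entry. With the replicate number as a block, though no label states a pairing, 85 genes of the table were higher and 140 lower. Of the 28 genes under that block, 0 were higher and 1, GL31360-G, was lower (adjusted p = 0.0307, edgeR). Without the 4 genes that have no KEGG entry, a setting added after seeing the data, 4 were lower and the median was -0.33. With 1 library left out, 273 to 910 genes of the table were called higher and 382 to 1036 lower, of the 28 genes 0 were higher and 3 to 7 lower, and their median ranged from -0.55 to -0.38. Fewer libraries leave fewer degrees of freedom by construction. For the 14 genes named by rule, 140 of 182 values under these alternatives kept direction and side of the threshold. Of the rest, 41 lost the call and 1 gained it, and 0 of the 182 changed sign. Some of the 14 were not called in the main fit and had no call to lose. The 41 losses therefore all fall on the called genes, and the 140 overstates how well calls held. Over all 28 genes, 26 kept their sign under every alternative. Depth did not keep any of the 28 genes from being tested; the number of libraries limits precision.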

Other observations

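Genes that use amino acids for protein synthesis were looked at beside those that make them. Of 33 tested genes on the KEGG map of aminoacyl-tRNA synthesis, 4 were lower (12.1%) and 0 were higher (edgeR, 10 in either direction at an unadjusted p under 0.05, and 8 lower by DESeq2). The edgeR shares over all genes tested were 8.13% lower and 7.5% higher. An unadjusted edgeR p under 0.05 was found in 3828 of the 11993 genes tested. DESeq2 called 1294 genes of the whole table lower and 1285 higher. The median log2 fold change of the 33 genes was -0.20. The phenylalanyl-tRNA synthetase GL17358-G fell from 11.6 ± 1.52 to 5.56 ± 1.10 FPKM (SD, n = 3 and 3, adjusted p = 0.0102, edgeR). The mitochondrial tryptophanyl-tRNA synthetase GL16342-G fell from 30.6 ± 3.61 to 16.5 ± 2.39 FPKM (adjusted p = 0.00916, edgeR). Both calls held without any single library, while those of GL25741-G and GL24500-G did not. Without 1 library, 2 to 5 were called lower. The lowest count came without ammonium replicate 2 or 3 or nitrate replicate 1 or 3. GL21174-G, described as the kinase GCN2 that senses uncharged tRNA, stood at 13.6 ± 1.40 and 12.3 ± 0.702 FPKM (log2 fold change -0.15 ± 0.16, adjusted p = 0.567, edgeR).

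On the map of valine, leucine and isoleucine breakdown, 7 of 26 tested genes outside the 28 were lower (26.9%) and 3 were higher (11.5%). By comparison, 8.13% of all genes tested were lower and 7.5% higher. Isovaleryl-CoA dehydrogenase GL19834-G, of leucine breakdown, fell from 22.5 ± 1.42 to 11.4 ± 1.07 FPKM (adjusted p = 0.00846, edgeR), a call that held without any single library. The maps of lysine, tryptophan and tyrosine breakdown had 1 of 21, 4 of 29 and 2 of 10 lower, and 3, 3 and 1 higher. Counts for the breakdown maps were not recomputed with libraries left out. Of the 22 genes left out of the amino acid map, 5 were lower and 0 were higher by edgeR, with 9 at an unadjusted p under 0.05 and 2 higher by DESeq2. Over the whole table, 3828 of 11993 genes tested had such an unadjusted p, and DESeq2 called 1285 genes higher. Among the 22, the count of lower calls fell to 0 without ammonium replicate 3 or nitrate replicate 3. Arginase GL24613-G, which splits arginine, was among the lower ones, at 236 ± 21.4 and 146 ± 7.61 FPKM (adjusted p = 0.0246, edgeR), a call lost without library 2 or 3 of either group.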
